A study of Mus musculus with 4 samples.

Results

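The genes of glycolysis and of the pentose phosphate pathway were followed through the replicative senescence of MEFs, embryonic fibroblasts taken from mice, which stop dividing after a limited number of passages. The set holds 37 genes, chosen by name for their place in these pathways, of the 17466 genes that the arrays could be matched to, and every probe listed under a mouse RefSeq transcript of a member was read. Cells at passage 7, at the onset of senescence, were compared with growing cells at passage 2, with 2 arrays of 1 colour per passage. All cells were unmodified MEFs kept in DMEM with serum and antibiotics, and the labels give no strain or embryonic age. RNA of 3 independent cultures was pooled at each passage, so both arrays of a passage may be technical repeats, in which case p-values reflect array-to-array spread alone.

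Glycolysis splits glucose into pyruvate in the cytosol, with a net gain of ATP and NADH. Glucose enters through transporters of the SLC2 (GLUT) family, hexokinase and phosphofructokinase commit it to breakdown, and pyruvate is then either reduced to lactate, which leaves through monocarboxylate transporters, or oxidised by the mitochondrial pyruvate dehydrogenase complex, which pyruvate dehydrogenase kinases (PDKs) switch off. The pentose phosphate pathway branches off at the first phosphorylated sugar and yields NADPH for reductive chemistry and ribose for nucleotides. In cultured fibroblasts the hypoxia-inducible factor HIF-1, MYC and p53 are known regulators of these genes.

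Of the 37 members, 35 were matched to 55 probes and 34 were tested. Hk1 and Eno3 were not matched to a probe and were not analysed here. Slc16a1, the lactate transporter MCT1, was not well above background on any of the 4 arrays, so no change is given for it. Each of the 34 tested members was well above background on all 4 arrays, so none of them passed the filter through 1 passage alone. Levels are log2 of the processed signal relative to the 75th percentile of the array, so that 0 is the signal of that percentile. Levels of different probes cannot be set against each other, because probes bind with different strength.

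The passage 7 replicate 2 array was the dimmest, with 65.8% of its spots well above background and a 75th percentile of 402, against 70.6% to 72.7% and 964 to 1404 on the other arrays. Of 10 fibroblast markers 9 were tested, and all 9 were well above background on every array, among them Col1a1, Vim and Fn1. Pdgfra and Lum fell, and 5 of the 9 had changes below 0. The summed linear signal of all 9 markers, to which bright genes such as Fn1 add most, was 381 to 531 at passage 7, against 292 to 303 at passage 2. Of 8 keratinocyte markers 7 were tested, Dsp rose and Krt14 fell, with a sum of 0.784 to 0.914 at passage 7, against 0.801 to 1.36 at passage 2. Of 6 adipocyte markers 3 were tested, Fabp4 rose and Lpl fell. The sum of the 3 was 3.55 to 4.32 at passage 7, against 3.07 to 3.48 at passage 2. Without Fabp4 the sum went the other way, with 0.89 to 1.00 at passage 7, against 2.53 to 2.65 at passage 2. All 4 arrays lay on 1 slide, each passage at its own positions, and the effects of position and passage cannot be told apart. In RNA of whole cultures, fewer cells of a type and less RNA per cell cannot be told apart.

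The comparison of passage 7 with passage 2 showed 5 changed members among the 34 tested. The call rule was an adjusted p below 0.05 in limma, adjusted over all 13823 genes tested, together with a change of at least 2-fold. Pdk4, Pgam2, Pfkp and Pdk2 rose, and Slc2a3 fell. In addition Gpi1 and Ldhb passed on the adjusted p but not on the 2-fold minimum, as did 817 of all 13823 genes. With no fold minimum 7 of the 34 members passed, against 25.4% of all genes. The 5 called members are 14.7% of the 34 tested members, against a background of 19.5% of all genes called, so the share of members called is no higher than that of genes at large. Of all genes tested 10.0% rose and 9.46% fell. The members' median change was 0.31 on the log2 scale, against 0.20 for all genes, and 19 of the 34 lay above the median of all genes. The values of both passage 7 arrays were above those of both passage 2 arrays for 18 members (52.9%; background 40.6%) and below them for 3 members (8.82%; background 27.8%). This lean towards higher values depended on the scaling, since 27 members had a change above 0 here, 21 after quantile normalisation and 17 for the authors' values. Of all 13823 genes 8373 had a change above 0 here, and the median change of all genes was also lower in those other settings. The number of calls depended on single arrays, among members and among all genes alike. With 1 array left out, each gene's own spread rests on the 2 arrays of the other passage alone. The robust SD between arrays was 0.19 at passage 7 and 0.33 at passage 2. With passage 7 replicate 1 left out 2 members rose and 0 fell (1 with a negative change at an unadjusted p under 0.05 in limma), and with passage 7 replicate 2 left out 1 rose and 0 fell (likewise 1). With passage 2 replicate 1 left out 5 rose and 1 fell, and with passage 2 replicate 2 left out 2 rose and 1 fell.

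**Figure D1:**
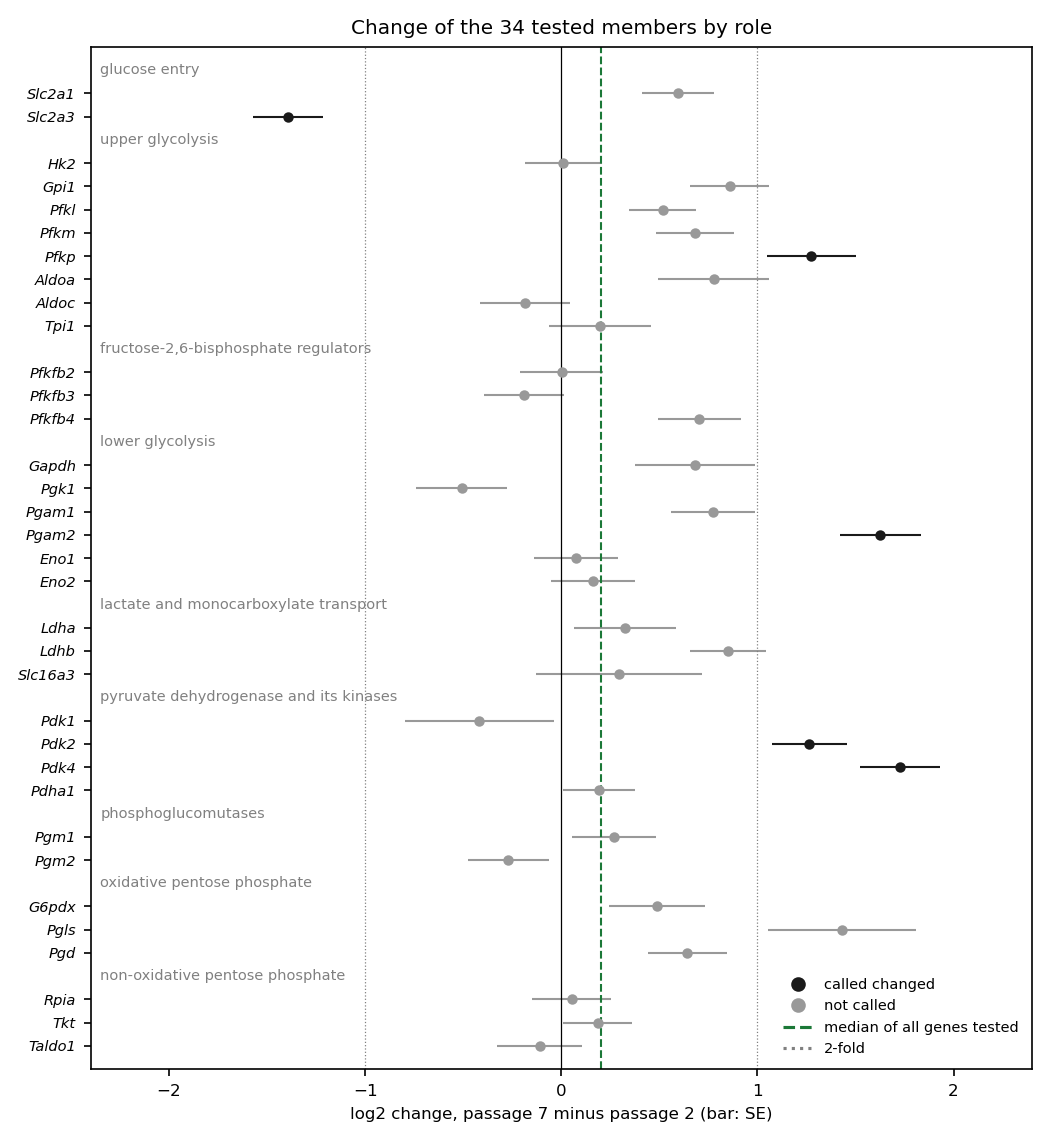
Log2 change of each of the 34 tested members, passage 7 minus passage 2, grouped by role (points, with SE as bars; black where called changed, grey where not). The green dashed line is the median change of all 13823 genes tested (0.20) and the dotted lines mark 2-fold. Pdk4, Pgam2, Pfkp and Pdk2 lie right of the 2-fold line as called genes, Slc2a3 lies left of it, and Pgls lies beyond it without being called.

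The largest rises were those of Pdk4, at the gate between pyruvate and the mitochondrion, and of Pgam2, an isoform of lower glycolysis. Among the pyruvate dehydrogenase kinases, which phosphorylate and inactivate the complex, Pdk4 is the form induced by fasting and fatty acids. Its level was 0.46 and 0.63 on the passage 7 arrays, against -1.33 and -1.03 on the passage 2 arrays. It rose 3.31-fold (log2 change 1.73 ± 0.21, SE; adjusted p = 0.010). The passages did not overlap, and the call held with any 1 array left out (adjusted p from 0.031 to 0.049). Pdk2, the most widely expressed kinase of the family, was at 0.21 and 0.37 at passage 7, against -0.87 and -1.07 at passage 2. It rose 2.4-fold (1.26 ± 0.19, adjusted p = 0.016), again with no overlap. Its call was lost with passage 7 replicate 1, passage 7 replicate 2 or passage 2 replicate 2 left out (adjusted p = 0.066, 0.11 and 0.052). Pdk1, the kinase best known as a HIF-1 target, was dim and overlapped between passages, at -5.57 and -5.09 on the passage 7 arrays, against -5.37 and -4.45 on the passage 2 arrays. Its change of -0.42 ± 0.38 did not pass (adjusted p = 0.45). Pdha1, the catalytic subunit that these kinases act on, had a change of 0.19 ± 0.18 (adjusted p = 0.47).

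Among further regulators of pyruvate dehydrogenase, outside the 37 genes, a kinase and a phosphatase were called. Pdk3 fell by 1.07 ± 0.18 on the log2 scale and Pdp1, the phosphatase that reactivates the complex, by 1.67 ± 0.29 (adjusted p = 0.019 and 0.022). Pdk3 was named after its value was seen. Pdk3 lost its call with passage 7 replicate 1, passage 7 replicate 2 or passage 2 replicate 2 left out (adjusted p = 0.11, 0.14 and 0.0502), and Pdp1 lost it with passage 7 replicate 2 or passage 2 replicate 2 left out (adjusted p = 0.085 and 0.057). The complex's other subunits Pdhb, Pdhx, Dlat and Dld were not called, with changes from -0.55 for Dld to 0.47 for Pdhb.

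The promoters of the 4 members that rose are shown with those of Slc2a1 and Pgk1. This pair of long-known HIF-1 targets was not called. The letters ACGTG, a form of the hypoxia response core, can thus be read beside the change. Each window is the 250 bases before the first listed start in RefSeq on GRCm38.p6, from 5′ to 3′ on the gene's strand. Capitals mark the letters ACGTG on either strand.
Pdk4 (GRCm38.p6, chr6:5496279-5496528, minus strand): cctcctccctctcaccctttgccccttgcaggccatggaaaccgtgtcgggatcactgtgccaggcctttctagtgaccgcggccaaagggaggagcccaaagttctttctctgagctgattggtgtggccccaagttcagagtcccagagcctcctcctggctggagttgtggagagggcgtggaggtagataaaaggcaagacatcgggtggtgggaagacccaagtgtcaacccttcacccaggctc
Pdk2 (GRCm38.p6, chr11:95041372-95041621, minus strand): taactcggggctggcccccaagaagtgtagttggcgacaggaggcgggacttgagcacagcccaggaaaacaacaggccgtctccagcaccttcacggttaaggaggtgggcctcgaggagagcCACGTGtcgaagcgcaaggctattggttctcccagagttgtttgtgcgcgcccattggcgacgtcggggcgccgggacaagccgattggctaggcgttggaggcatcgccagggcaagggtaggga
Pgam2 (GRCm38.p6, chr11:5803797-5804046, minus strand): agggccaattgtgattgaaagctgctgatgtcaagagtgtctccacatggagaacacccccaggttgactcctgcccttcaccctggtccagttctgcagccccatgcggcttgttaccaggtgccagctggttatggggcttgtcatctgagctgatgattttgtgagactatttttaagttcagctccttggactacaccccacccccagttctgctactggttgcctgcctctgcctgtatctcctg
Pfkp (GRCm38.p6, chr13:6648772-6649021, minus strand): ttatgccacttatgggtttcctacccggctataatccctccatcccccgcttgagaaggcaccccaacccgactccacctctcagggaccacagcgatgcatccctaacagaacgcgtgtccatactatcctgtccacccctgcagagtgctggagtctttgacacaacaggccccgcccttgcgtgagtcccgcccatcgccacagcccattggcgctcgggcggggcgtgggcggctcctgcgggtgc
Slc2a1 (GRCm38.p6, chr4:119108495-119108744, plus strand): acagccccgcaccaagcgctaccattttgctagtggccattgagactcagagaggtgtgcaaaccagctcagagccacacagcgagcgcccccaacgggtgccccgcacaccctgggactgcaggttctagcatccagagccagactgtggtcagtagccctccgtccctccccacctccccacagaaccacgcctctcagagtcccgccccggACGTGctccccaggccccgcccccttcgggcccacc
Pgk1 (GRCm38.p6, chrX:106186850-106187099, plus strand): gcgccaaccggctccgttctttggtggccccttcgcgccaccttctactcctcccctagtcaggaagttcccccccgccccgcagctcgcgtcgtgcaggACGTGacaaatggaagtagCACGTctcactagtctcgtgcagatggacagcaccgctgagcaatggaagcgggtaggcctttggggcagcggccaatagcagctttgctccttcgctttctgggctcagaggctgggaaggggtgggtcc

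ACGTG stood on at least 1 strand in the Pdk2, Slc2a1 and Pgk1 windows and was not in those of Pdk4, Pgam2 and Pfkp. In Pdk2 it forms a CACGTG palindrome, the E-box that MYC and related factors bind, so ACGTG reads on both strands there. The GCGTG form of the core was not searched for and enters none of the shares or medians given here. It can be read in the Pdk4 and Pfkp windows, and on the other strand in that of Slc2a1. Of 36 members with a promoter in the table, 14 held ACGTG in at least 1 window (38.9%), against 23.8% of 11016 tested genes and 18.5% of all 27025 genes listed. CACGTG, which contains ACGTG, was in the windows of 6 members (16.7%), against 9.36% of the tested genes. The 13 tested members with ACGTG had a median change of 0.29 (from -0.51 for Pgk1 to 1.26 for Pdk2), and the 20 without it one of 0.50 (from -0.42 for Pdk1 to 1.73 for Pdk4). Slc2a3, the called member that fell (change -1.39), had no promoter listed and is in neither group. Both motifs were chosen with the changes known, and these shares and medians are a description only.

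Lower glycolysis turns triose phosphates into pyruvate precursors, and here an isoform typical of muscle rose. Pgam2, the muscle form of phosphoglycerate mutase, was at 0.17 and 0.44 on the passage 7 arrays, against -1.20 and -1.43 on the passage 2 arrays. It rose 3.09-fold (1.63 ± 0.21, adjusted p = 0.012) with no overlap. Of the fits with 1 array left out, the one without passage 7 replicate 2 lost its call (adjusted p = 0.061). Pgam1, the form of most other tissues, had changes of 0.77 and 0.72 at its 2 probes and was not called (adjusted p = 0.061). Markers of skeletal muscle were measured beside it, with 9 of 10 tested. Acta1 rose by 1.25 and Des fell by 2.65 on the log2 scale, and Myh3 was at least 8.7-fold lower, since neither passage 7 array was well above background (adjusted p = 0.023). Of the 9 tested, 8 had changes below 0, with a median of -0.40 over the 9, among them Actc1 with -2.63 and Tnnt3 with -0.40, neither called. Their summed linear signal, relative to the 75th percentile of the array, was 21.4 to 23.5 at passage 7 and 8.7 to 12.3 at passage 2, nearly all of it Acta1. Without Acta1 the sum was 0.274 to 0.387 at passage 7, against 0.909 to 1.24 at passage 2. The defining factors Myod1 and Myog had changes of -0.28 and -0.44 and the muscle creatine kinase Ckm one of -0.03, none of them called. The part of muscle cells in the rise of Pgam2 was not tested.

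The other members of lower glycolysis were not called. Gapdh, the dehydrogenase that makes NADH, was at 7.07 and 7.54 on the passage 7 arrays, against 6.93 and 6.32 on the passage 2 arrays. The passage 7 values were both higher, but the change of 0.68 ± 0.30 did not pass (adjusted p = 0.16), it was 0.33 and 0.34 at the other 2 probes, and it was -0.02 with quantile normalisation. Pgk1, which makes the first ATP of the pathway, was lower on both passage 7 arrays, with changes of -0.51 and -0.59 at its 2 probes (adjusted p = 0.17 for the brighter). The enolases Eno1 and Eno2 had changes of 0.07 and 0.16. Probes for Gapdh, Pgam1, Eno1, Ldha, Aldoa and Tpi1 may also read closely related gene copies, which were not told apart here.

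At glucose entry 1 of the 2 transporters fell. Slc2a3, which encodes the high-affinity transporter GLUT3 typical of neurons and white blood cells, was at -1.88 and -1.95 on the passage 7 arrays, against -0.59 and -0.45 on the passage 2 arrays. It fell by 1.39 ± 0.18 on the log2 scale (2.62-fold, adjusted p = 0.012) and the passages did not overlap. The call was lost with passage 7 replicate 1 or replicate 2 left out (adjusted p = 0.056 and 0.076). Slc2a1, which encodes the basal transporter GLUT1, was at 3.88 and 3.78 at passage 7, against 3.15 and 3.32 at passage 2. It was higher on both passage 7 arrays, by 0.60 ± 0.18 (1.51-fold) at the brighter probe and 0.59 at the other, and was not called (adjusted p = 0.076). Macrophage and neural markers were read beside Slc2a3. Of 10 macrophage markers 6 were tested, Csf1r and Adgre1 fell, all 6 had changes below 0, and the summed linear signal was 1.16 to 1.44 at passage 7, against 2.41 to 2.66 at passage 2. Of 10 neural and glial markers 8 were tested, Stmn2 and Map2 rose, Nefl and Nefm fell, and the summed signal was 9.66 to 9.73 at passage 7, against 6.88 to 8.1 at passage 2. The part of such cells in the fall of Slc2a3 was not tested.

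**Figure D2:**
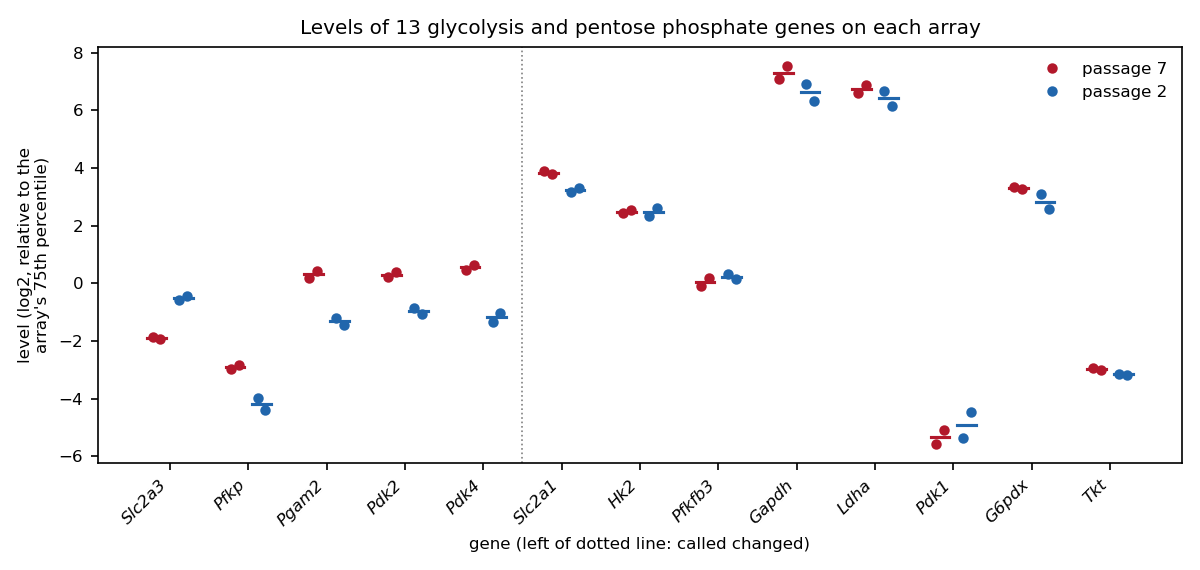
Level of 13 members on each array (points, log2 relative to the array's 75th percentile; bars mark the mean of 2 arrays), passage 7 in red to the left of passage 2 in blue. Left of the dotted line stand the 5 called members, whose passages do not overlap. Right of it stand 8 members shown whatever their change, of which Hk2, Pfkfb3, Ldha and Pdk1 had overlapping passages. Heights of different genes are not comparable.

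In upper glycolysis the platelet-type phosphofructokinase rose. Pfkp was at -2.98 and -2.83 on the passage 7 arrays, against -3.97 and -4.39 on the passage 2 arrays. It rose 2.42-fold (1.28 ± 0.23, adjusted p = 0.022) with no overlap. This was the least stable of the 5 calls. It was lost with passage 7 replicate 1, passage 7 replicate 2 or passage 2 replicate 2 left out (adjusted p = 0.074, 0.12 and 0.057), and the change was 0.76 in the authors' value table. The liver form Pfkl and the muscle form Pfkm had changes of 0.52 and 0.68 and were not called (adjusted p = 0.09 and 0.068), although both were higher on both passage 7 arrays.

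Hk2, the inducible hexokinase that traps glucose in the cell, was not called. It was at 2.44 and 2.53 on the passage 7 arrays, against 2.33 and 2.62 on the passage 2 arrays, and the passages overlapped. Its change was 0.01 ± 0.20 (adjusted p = 0.97) and -0.17 at its other probe. Gpi1, which turns glucose phosphate into fructose phosphate, was higher on both passage 7 arrays by 0.86 ± 0.20 (1.81-fold, adjusted p = 0.042) and 0.91 at its other probe, short of the 2-fold minimum. The aldolases had changes of opposite sign, neither called, with 0.78 for Aldoa and -0.19 for the brain form Aldoc, and the triose isomerase Tpi1 had a change of 0.20.

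The bifunctional PFKFB enzymes set fructose-2,6-bisphosphate, a strong activator of phosphofructokinase, and the 3 among the members were not called. Pfkfb3, the form with the highest kinase activity, was at -0.11 and 0.19 on the passage 7 arrays, against 0.32 and 0.14 on the passage 2 arrays. These values overlapped, and the change was -0.19 ± 0.21 (adjusted p = 0.52). Pfkfb4 was higher on both passage 7 arrays by 0.70 and 0.77 at its 2 probes (adjusted p = 0.072), and Pfkfb2 had a change of 0.00. Pfkfb1, the liver and muscle form, is outside the 37 genes and was named after its value was seen. It fell by 1.09 ± 0.20 on the log2 scale (adjusted p = 0.023). Its call was lost with either passage 7 array left out (adjusted p = 0.12 and 0.13), with passage 2 replicate 1 left out (a change of -0.94, under 2-fold) and in the authors' value table (-0.97, under 2-fold), and the change was -0.59 with normexp and quantile normalisation.

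At the lactate end of the pathway no gene was called. Ldha, the lactate dehydrogenase subunit that favours lactate, was at 6.59 and 6.87 on the passage 7 arrays, against 6.67 and 6.15 on the passage 2 arrays, which overlapped. Its change was 0.32 ± 0.26 (adjusted p = 0.40), 0.28 at the second probe and -0.29 at the third, so its probes did not share a sign. Ldhb, the subunit that favours pyruvate, was at 3.68 and 3.66 at passage 7, against 2.95 and 2.68 at passage 2. Its 3 probes changed by 0.79 to 0.85 (1.8-fold at the brightest, adjusted p = 0.039), short of 2-fold. Slc16a3, the lactate exporter MCT4, had changes of 0.29 and 0.83 at its 2 probes and an SE of 0.42 at the brighter (adjusted p = 0.63). The phosphoglucomutases Pgm1 and Pgm2, which join glycolysis to glycogen, had changes of 0.27 and -0.27.

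The 3 members of the oxidative arm of the pentose phosphate pathway, which makes NADPH, were not called. Their values at passage 7 were all above those at passage 2, as they were for 40.6% of all genes. G6pdx, the first enzyme, was at 3.35 and 3.28 on the passage 7 arrays, against 3.09 and 2.56 on the passage 2 arrays, a change of 0.49 ± 0.24 (adjusted p = 0.20). Pgls, the lactonase, had the largest difference, with 4.08 and 4.29 at passage 7, against 3.26 and 2.26 at passage 2. The 2 passage 2 arrays lay far apart, and its change of 1.43 ± 0.38 missed the threshold (adjusted p = 0.054). Pgls was called in 6 of the 18 alternatives, among them median scaling (1.26, adjusted p = 0.0084), the authors' value table (1.03, adjusted p = 0.046) and the fit with passage 2 replicate 1 left out (1.93, adjusted p = 0.029). Pgd was higher by 0.64 ± 0.20 (adjusted p = 0.078). In the non-oxidative arm, which shuffles sugars between the pathways, Tkt was at -2.93 and -3.02 at passage 7, against -3.15 and -3.17 at passage 2, a change of 0.18 ± 0.17 (adjusted p = 0.47). Rpia and Taldo1 had changes of 0.05 and -0.11.

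Paralogs that catalyse the same step were compared within each array, for 5 pairs. The change of Slc2a3 lay 1.99 below that of Slc2a1 on the log2 scale, and that of Pdk4 lay 2.14 above that of Pdk1. Pgam2 changed by 0.85 more than Pgam1, Pfkp by 0.76 more than Pfkl and Ldhb by 0.53 more than Ldha. With 2 arrays a passage an exact two-sided permutation test over arrays cannot go below p = 0.33, so these differences are given as a description. In 4 of the 5 pairs 1 gene was already called.

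Genes around the 37 members were read from 5 further lists. Of 40 other genes of glycolysis and the pentose phosphate pathway 36 were tested, and 6 rose and 5 fell, which is 30.6% called (background 19.5%). Fbp2, the muscle fructose bisphosphatase that runs the opposite way to phosphofructokinase, rose 7.92-fold (2.98 ± 0.19, adjusted p = 0.005), and its call held with any 1 array left out. It was dim at passage 2, at -6.01 and -6.07, against -2.94 and -3.17 at passage 7, and the size of the rise depended on the processing. The change of Fbp2 was 1.54 in the authors' value table, still called, and 0.95 with normexp and quantile normalisation, where it was under 2-fold and not called. Tktl1, a relative of transketolase, rose by 1.5 and Bsg, the chaperone of lactate transporters, by 1.33 on the log2 scale (adjusted p = 0.032 and 0.017). Prps1, which makes the activated ribose for nucleotides, fell by 1.71 ± 0.23 and Hk3, the hexokinase of blood cells, by 1.55 ± 0.30 (adjusted p = 0.012 and 0.026). Tktl1 and Bsg lost their calls with passage 7 replicate 1, passage 7 replicate 2 or passage 2 replicate 2 left out (adjusted p = 0.082, 0.10 and 0.051 for Tktl1, and 0.054, 0.11 and 0.059 for Bsg). Hk3 lost its call with either passage 7 array left out (adjusted p = 0.084 and 0.065), and its change was 0.20 with normexp and 75th percentile scaling. In this list fewer genes were called with passage 7 replicate 1, passage 7 replicate 2 or passage 2 replicate 2 left out, as was so for all genes. Pkm, which makes pyruvate, was not called (0.67 ± 0.24, adjusted p = 0.11).

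In the tricarboxylic acid cycle 1 of 18 genes was called (5.56%, background 19.5%). It was Pcx, pyruvate carboxylase, which feeds pyruvate into the cycle without pyruvate dehydrogenase (2.51-fold, 1.33 ± 0.19, adjusted p = 0.014). Of 18 tested genes of glycogen and hexose branches 2 rose and 1 fell (16.7% called, background 19.5%), a share near that of all genes. Gyg, the primer of glycogen, rose by 1.35 and Galt, of galactose use, by 1.20, and Psat1, of serine synthesis, fell by 1.31 (adjusted p = 0.012, 0.028 and 0.015). With either passage 7 array left out Pcx, Gyg, Galt and Psat1 were each no longer called (adjusted p = 0.076 and 0.075 for Pcx, 0.064 and 0.077 for Gyg, 0.11 and 0.11 for Galt, 0.081 and 0.073 for Psat1). Galt and Psat1 were also no longer called with passage 2 replicate 2 left out (adjusted p = 0.061 and 0.0504). With passage 2 replicate 1 left out more genes of the tricarboxylic acid cycle rose, as was so for all genes.

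Among regulators, Hif1a itself was lower. Of 16 tested, 1 rose and 3 fell, which is 25.0% called (background 19.5%), a share near that of all genes. Hif1a, the oxygen-regulated subunit of HIF-1, was at 3.40 and 3.42 on the passage 7 arrays, against 4.43 and 4.63 on the passage 2 arrays. It fell by 1.12 ± 0.18 (2.17-fold, adjusted p = 0.019). Of the other HIF subunits in this list, Epas1 was higher by 0.99 ± 0.20 (1.99-fold, adjusted p = 0.028), just short of 2-fold. Arnt was higher by 0.64 ± 0.21 (adjusted p = 0.090). Neither was called, although both were higher on both passage 7 arrays. Mycn, a MYC relative, fell by 2.10 ± 0.24 and Nfe2l2, the NRF2 factor that drives pentose phosphate genes, by 1.19 ± 0.18 (adjusted p = 0.0097 and 0.017). Mycn was dim, at -5.20 and -5.30 on the passage 7 arrays, against -3.40 and -2.90 on the passage 2 arrays. Its change was 0.62 with normexp and 75th percentile scaling. With marked backgrounds replaced in that setting it was -0.48 and not called. Esrra, a nuclear receptor of mitochondrial metabolism known to act on Pdk4, rose by 1.38 ± 0.26 (adjusted p = 0.026). Myc, Txnip, Tigar, Trp53 and Ppargc1a were not called, with changes of 0.55, 0.20, 0.54, 0.08 and -1.05. Hif1a, Nfe2l2 and Esrra lost their calls with passage 7 replicate 1, passage 7 replicate 2 or passage 2 replicate 2 left out (adjusted p = 0.10, 0.12 and 0.055 for Hif1a, 0.070, 0.13 and 0.055 for Nfe2l2, 0.092, 0.086 and 0.056 for Esrra), which left 1 regulator called in each case, Mycn.

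Of 17 tested HIF-1 targets outside glycolysis 1 rose and 1 fell (11.8% called, background 19.5%). Their median change was 0.14, against 0.20 for all genes. P4ha1, a collagen prolyl hydroxylase, rose by 1.38 ± 0.17 and Ndrg1, a stress-responsive gene, fell by 1.31 ± 0.17 (adjusted p = 0.011 and 0.012). Both were no longer called with either passage 7 array left out. With passage 2 replicate 1 left out more of these targets were called, as was so for all genes. Among the genes named from the 5 lists, Fbp2, Prps1 and Mycn were still called with the replicate number as a block. With normexp and quantile normalisation Mycn, Hk3, Bsg, Tktl1 and Galt were not called (-0.85, -0.87, 0.78, 0.52 and 0.48), nor were Fbp2 and Pfkfb1. Bsg was also not called with quantile normalisation alone (0.88). In the authors' value table Tktl1, Bsg and Galt were not called (0.82, 0.93 and 0.59).

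**Figure D3:**
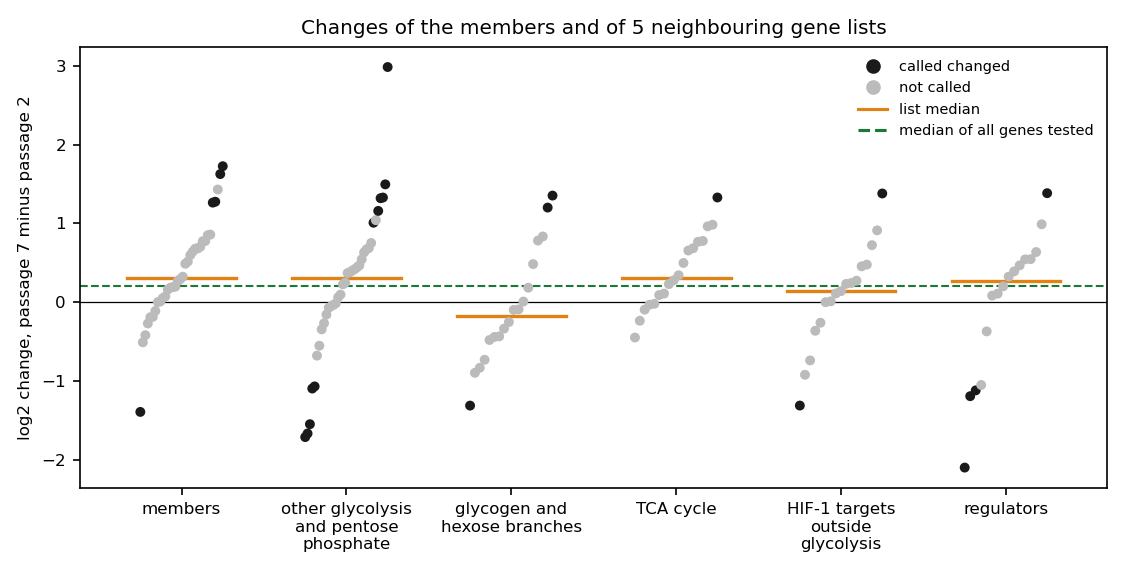
Log2 change, passage 7 minus passage 2, of each tested gene of the members (left) and of 5 neighbouring lists, with genes in order of change within a list (black where called changed, grey where not). Orange bars are list medians and the green dashed line is the median of all genes tested (0.20). The list medians lie between -0.17 and 0.31, and the genes farthest from 0 are Fbp2 (2.98) and Mycn (-2.10).

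Of 18 alternative settings, those with other dim-probe filters, eBayes with trend, other thresholds or a block left the members' changes unaltered. The 5 called members kept their direction under all 18 settings. Over these settings the change of Pdk4 ranged from 1.24 to 1.88, that of Pgam2 from 1.14 to 1.76, that of Pdk2 from 1.1 to 1.36, that of Pfkp from 0.55 to 1.85 and that of Slc2a3 from -1.58 to -0.71. In the authors' value table Pdk4, Pgam2, Pdk2 and Slc2a3 were called with changes of 1.39, 1.24, 1.23 and -1.58, and Pfkp was not. All 5 lost their calls with normexp and 75th percentile scaling (adjusted p in limma 0.56 for the 4 higher members and 0.64 for Slc2a3), and at an adjusted p under 0.01. With the replicate number as a block Pdk4 and Pgam2 were called. Of the 18 alternatives, Pdk4 was called in 16, Pgam2 in 15, Slc2a3 in 13, Pdk2 in 12 and Pfkp in 8.

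**Figure D4:**
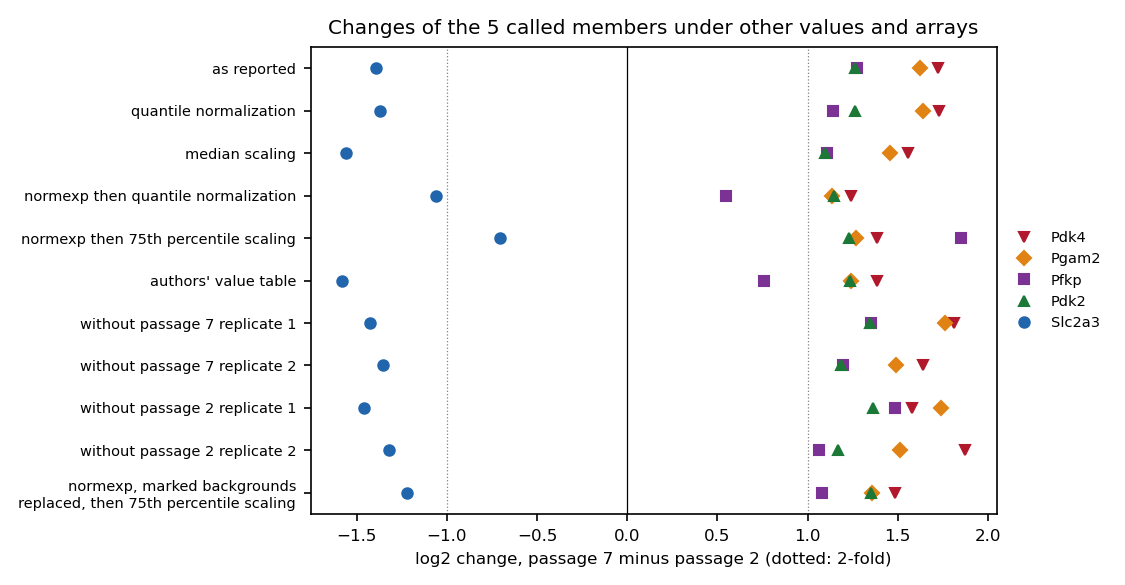
Log2 change, passage 7 minus passage 2, of the 5 called members as reported and under 10 other sets of values or arrays (1 row each; dotted lines mark 2-fold). Slc2a3 stays below 0 in every row and the other members above it, and Pfkp is the one with the widest range, from 0.55 to 1.85.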

How the data were processed

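Total RNA was labelled with Cy3 by linear amplification, per the labels' protocols, and read on Agilent arrays of 1 colour. The deposited spot files hold signal and background intensity as written, per the file headers, by Feature Extraction 10.5.1.1 from Agilent, where the processed signal intensity is already background-subtracted. The authors' value table is on a log2 scale close to log2 median intensity (r from 0.9986 to 1.0 with the array of the same label), its column medians are 6.24 and 6.14 at passage 7 and 6.30 and 6.30 at passage 2, and its centring is not known. Per the submitters' processing notes limma was used, and the sources used here do not name the normalisation.

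From these files, log2 processed signal was scaled to the 75th percentile of each array over non-control spots, outlier spots (14 to 61 per array) were left out, and spots of 1 probe were averaged. Probes were named through RefSeq accessions with a table of GRCm38.p6 (31089 of 43553 probes, 17466 genes), so the array design's own mm9 coordinates are not used. Each gene was represented by its brightest probe and had to be well above background on the 2 arrays of 1 passage or of both, as 13823 genes were. The test was lmFit and eBayes of limma 3.58.1, run in R 4.3.3 (2 against 2 arrays, no covariate, Benjamini-Hochberg over all genes, two-sided). A second fit over 30797 probes called 5 of 54 tested member probes (background 17.3%). Precision is limited by the small number of arrays. The fits were tested on simulated data.

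The members, the lists and their alternatives were chosen with earlier results of these data known. Named are all members, with values per array for those called and for 8 others whatever their values (Slc2a1, Hk2, Pfkfb3, Gapdh, Ldha, Pdk1, G6pdx and Tkt, with Pfkp among the called), and up to 6 called genes per neighbouring list by size. Values per array of Ldhb, Pgls, Hif1a, Mycn and Fbp2 were added after their values were seen. Marker genes, Epas1, Arnt and Ppargc1a were named after their values were seen. No list was tested as a set. Alternatives were quantile normalisation, median scaling, normexp on median spot and background signal (offset 50) with either scaling, the authors' value table, other filters on dim probes, the mean of a gene's probes, eBayes with trend, no fold minimum, an adjusted p under 0.01, each array left out in turn, and a block for the replicate number.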

Additional observations from a re-analysis of the deposited data

How the results depend on the processing

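The 5 called members kept their direction under all 18 alternatives, and 13 of the 29 others kept theirs, while 16 changed sign in at least 1. Where only filters on dim probes, thresholds, the eBayes trend or a block differed, the direction could not change. The 5 had also been called for their large changes. Of these 5, only Pdk4 kept its call with any 1 array left out.

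With 1 array left out, 1 to 6 members were called (1 to 5 higher, 0 to 1 lower), against 5 as reported, and 1141 to 3331 of all genes, against 2692. The members' median change lay between 0.24 and 0.52 in those fits, and was 0.090 for quantile normalisation, 0.040 for normexp followed by it and 0.0035 for the authors' values. The median of all genes was 0.20 as reported, 0.02, 0.01 and -0.06 in these 3 settings, 0.03 with median scaling and 0.50 with normexp and 75th percentile scaling. At an adjusted p under 0.01 in limma, 679 genes and 0 members passed (0 higher, 0 lower), with 15 members at an unadjusted p under 0.05. The normexp correction with 75th percentile scaling called 0 genes and 0 members (0 higher, 0 lower; limma, unadjusted p under 0.05 for 1 member and 663 genes), against 1273 genes when quantile normalisation followed it and 1242 when marked backgrounds were replaced, the last chosen after seeing the data. Without a filter on dim probes 1772 genes were called, and in the fit over probes 0 member probes, against 5 (limma, 14 at an unadjusted p under 0.05). Of the genes called, 51.4% rose as reported, 42.3% after quantile normalisation, 41.2% after median scaling and 36.1% for the authors' values. The cause was not tested.

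With the replicate number as a block, 1193 genes and 2 members were called (2 higher, 0 lower), Pdk4 and Pgam2. The labels do not say that the numbers pair the arrays, and deviations of same-numbered arrays correlated at -0.17 across genes. With the numbers crossed, chosen after seeing the data, 3063 genes and 6 members were called.

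Signs of uncalled members turned as follows. With quantile normalisation the changes were -0.52 for Eno1, -0.023 for Gapdh, -0.22 for Hk2, -0.34 for Ldha, -0.24 for Pdha1 and -0.37 for Tpi1. With median scaling they were -0.10 for Eno1, -0.0082 for Eno2, -0.16 for Hk2, -0.17 for Pfkfb2 and -0.12 for Rpia. With normexp and quantile normalisation they were -0.0084 for Aldoa, -0.46 for Eno1, -0.076 for Gapdh, -0.23 for Hk2, -0.47 for Ldha, -0.27 for Pdha1, -0.040 for Pgm1 and -0.42 for Tpi1, and -0.052 for Pkm. With normexp and 75th percentile scaling they were 0.17 for Aldoc, -0.34 for Eno1, -0.40 for Hk2, -0.29 for Ldha, -0.30 for Pdha1, 1.43 for Pdk1, -0.25 for Pgm1 and -0.36 for Tpi1, and outside the members 0.20 for Hk3 and 0.62 for Mycn. In the authors' value table they were -0.28 for Eno1, -0.051 for Eno2, -0.23 for Hk2, -0.30 for Ldha, -0.15 for Pdha1, -0.17 for Pfkfb2, -0.10 for Pgm1, -0.060 for Slc16a3, -0.13 for Tkt and -0.24 for Tpi1. The mean of all probes gave -0.079 for Hk2, and normexp with marked backgrounds replaced gave -0.069 for Hk2 and 0.34 for Pdk1. The cause was not tested. With 1 array left out the changes of 10 members also turned, within -0.40 to 0.030 for Aldoc, -0.066 to 0.21 for Eno1, -0.033 to 0.35 for Eno2, -0.13 to 0.15 for Hk2, -0.87 to 0.038 for Pdk1, -0.18 to 0.19 for Pfkfb2, -0.10 to 0.21 for Rpia, -0.14 to 0.73 for Slc16a3, -0.27 to 0.045 for Taldo1 and -0.053 to 0.45 for Tpi1.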
